A study of Bos taurus and other sequences with 9 samples.

Results

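Levels of 3 liver-rich miRNAs were followed through fetal bovine serum (FBS), EV-depleted FBS and a serum-free medium. The members were hsa-miR-122-5p, hsa-miR-192-5p and hsa-miR-148a-3p, taken by name from the 425 miRNAs of the small ncRNA sequencing data, and all 3 were present. miR-122 is the hallmark miRNA of the hepatocyte, where it takes part in lipid and cholesterol metabolism, and in blood it travels largely outside vesicles, bound to Argonaute proteins. miR-192 is abundant in liver, kidney and gut and is made together with miR-194, and its close relative miR-215 is made from a sister cluster. In the bovine RefSeq gene table MIR192 lies beside MIR194-2, and MIR215 beside MIR194-1. miR-148a is rich in liver but also found in many other tissues, and it shares its seed, the stretch that pairs with target mRNAs, with miR-148b and miR-152.

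The 9 samples came from 5 media, and RNA was isolated from the vesicle fraction of each medium with a spin-column kit that may also retain non-vesicular RNA. FBS-1 was serum from Sigma-Aldrich and FBS-2 serum from Gibco. UC-dFBS was the supernatant of overnight ultracentrifugation and UF-dFBS the flow-through of a centrifugal filter, each prepared from both sera and numbered as the serum. SBI-dFBS was commercial exosome-depleted FBS in 2 lots from System Biosciences, and its samples share no serum with the others. All 8 of these samples were DMEM/F12 supplemented with the serum and antibiotics, whereas StemPRO was a defined serum- and xeno-free medium from Gibco with 1 sample. No animal, sex or age beyond fetal is given for the sera, and how many animals a serum lot pools is not stated. No replicate preparation of the same serum was sequenced, so the spread between the samples of a medium includes the difference between sera or lots. Whether a medium held fewer carriers or less miRNA per carrier cannot be told apart.

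Each library held between 937 and 203755 miRNA counts, the fewest in UF-dFBS-2. Reads had been collapsed by molecular indices, and the values below are either these counts, their share of the miRNA counts of the sample, or spike-in normalized counts, in which the authors scaled each sample to synthetic RNAs added in known amounts. The floor was set at 3 counts, the upper limit for a miRNA with none, and corresponded to between 0.0278 spike-in normalized counts in StemPRO and 0.794 in SBI-dFBS-2. Intervals are 95% and, like the floor, cover counting error only. Mature miRNAs are of nearly equal length, so that levels of different miRNAs are compared without a length term, but the efficiency with which adapters join each miRNA was not measured.

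hsa-miR-122-5p was the most abundant miRNA in each of the 8 FBS-based samples. FBS-1 contained 19403 and FBS-2 contained 4817 spike-in normalized counts of it, a mean of 12110 ± 10314 (SD, n = 2). The commercial medium had 6517 in SBI-dFBS-1 and 11915 in SBI-dFBS-2, within the range of FBS. UC-dFBS-1 had 4629 and UC-dFBS-2 had 2100, and each lay below both FBS samples, although UC-dFBS-1 was close to FBS-2. UF-dFBS-1 and UF-dFBS-2 fell far below all of these, with 46.0 and 16.2. In StemPRO it was 0.0648, from 7 counts. The order of the media by their means was thus FBS, SBI-dFBS, UC-dFBS, UF-dFBS and StemPRO, but the samples of FBS and SBI-dFBS overlapped.

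hsa-miR-148a-3p was the second of the members, between the fifth and the 19th most abundant miRNA of the FBS-based samples. FBS-1 had 403 spike-in normalized counts and FBS-2 had 133. SBI-dFBS had 144 and 158, UC-dFBS had 101 and 59.1, and UF-dFBS had 0.688 and 0.291. As for miR-122, SBI-dFBS lay between the FBS samples and UC-dFBS below them. The UF-dFBS values rest on 38 and 7 counts, and the StemPRO value of 0.00926 on a single count.

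hsa-miR-192-5p was the least abundant of the members. FBS-1 contained 47.9 and FBS-2 contained 15.6 spike-in normalized counts, and the lots of SBI-dFBS contained 19.6 and 40.2. UC-dFBS had 7.34 and 6.30, nearly equal in both sera. UF-dFBS-1 had 0.163, from 9 counts. The value of UF-dFBS-2 was 0.0416 and that of StemPRO 0.0185, from 1 and 2 counts, both under the floor of their samples.

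**Figure D1:**
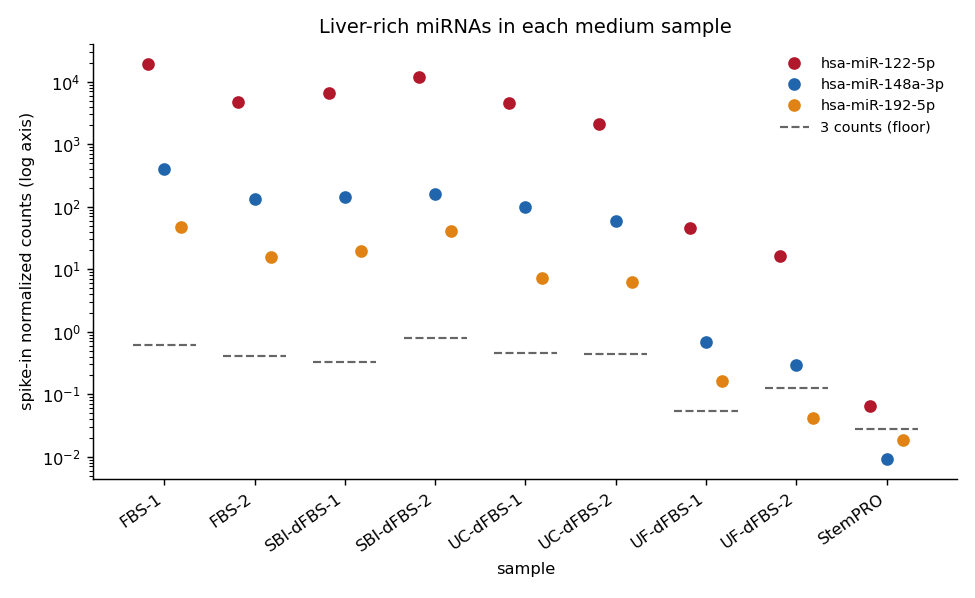
Spike-in normalized counts (log axis) of hsa-miR-122-5p, hsa-miR-148a-3p and hsa-miR-192-5p in each of the 9 samples, 1 point per miRNA and sample, with dashed lines at the floor of 3 counts. The 3 miRNAs keep the same order in all 8 FBS-based samples, from 19403 for hsa-miR-122-5p in FBS-1 to 0.0416 for hsa-miR-192-5p in UF-dFBS-2, and in StemPRO only hsa-miR-122-5p, with 7 counts, is above the floor.

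After depletion of the same serum, miR-122 held a larger share of the miRNAs that remained. hsa-miR-122-5p made up 46.1% of the miRNA counts in FBS-1 (Wilson interval 45.9 to 46.3%) and 28.9% in FBS-2 (28.6 to 29.1%). In the Sigma serum the share was 59.6% after ultracentrifugation (59.2 to 60.0%) and 60.4% after ultrafiltration (59.0 to 61.9%). In the Gibco serum it was 54.5% (53.9 to 55.1%) and 41.5% (38.4 to 44.7%). The SBI-dFBS lots had the highest shares, with 68.0% and 73.4%. The share was therefore above that of both FBS samples in 5 of the 6 depleted samples, while UF-dFBS-2 lay between FBS-1 and FBS-2. In StemPRO it was 0.487% (0.236 to 1.00%), where hsa-miR-203a was the most abundant. Within each serum the intervals of the depleted samples did not overlap that of FBS, while those of UC-dFBS-1 and UF-dFBS-1 overlapped each other. Each serum gave 1 sample per treatment, and the test across replicates is given with the comparisons of media.

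**Figure D2:**
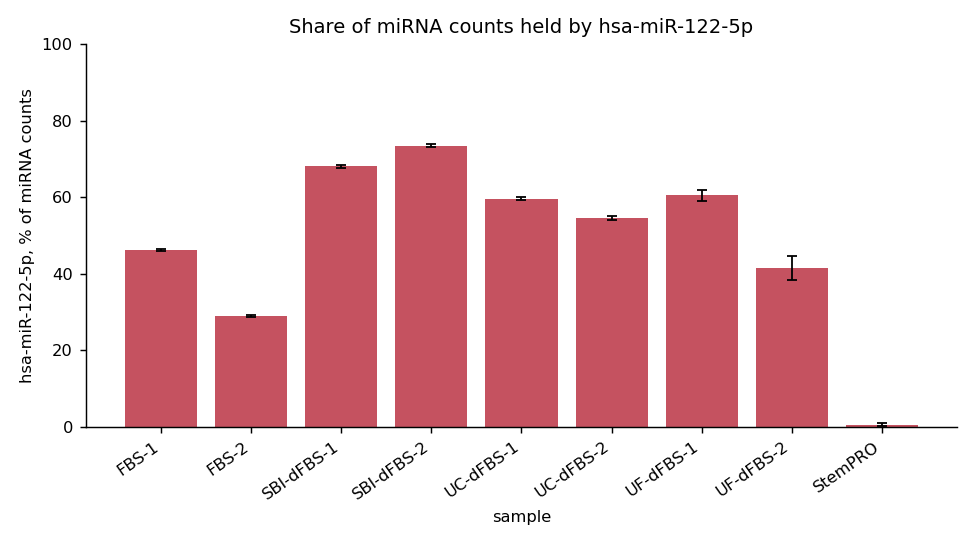
Share of the miRNA counts of each sample held by hsa-miR-122-5p, in percent, with Wilson 95% intervals as error bars (counting error only). The bars are at 46.1% and 28.9% in FBS, between 41.5% and 73.4% in the 6 depleted samples, and at 0.487% in StemPRO.

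As miR-122 fills so much of a library, the shares of the other members were also computed among the counts that were not miR-122. hsa-miR-148a-3p held 1.78% and 1.12% of these in FBS-1 and FBS-2, 3.21% and 3.37% in UC-dFBS, and 4.69% and 3.65% in SBI-dFBS. In UF-dFBS it was at 2.29% and 1.28%. Each UC-dFBS and UF-dFBS sample was thus above the FBS of its serum, although UF-dFBS-2, with 7 counts, exceeded FBS-2 by little. hsa-miR-192-5p held 0.211% and 0.131% in FBS, 0.234% and 0.360% in UC-dFBS, and 0.638% and 0.932% in SBI-dFBS. Its shares in UF-dFBS, 0.541% and 0.182%, come from 9 counts and 1 count.

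The ratios of the 3 miRNAs to each other ranged over 2.13-fold to 3.50-fold in the FBS-based samples, far less than their levels. Ultrafiltration lowered nearly all miRNAs together, so a narrow range of ratios is not by itself particular to the members. Ratios of a member to a relative, described below, ranged over 3.92-fold to 16.9-fold, in part from few counts. Other pairs were not computed. Within a sample the ratio of 2 miRNAs depends on neither the spike-ins nor the depth. The ratio of hsa-miR-122-5p to hsa-miR-192-5p had a median of 333 over the 8 FBS-based samples and ranged from 282 in UF-dFBS-1 to 630 in UC-dFBS-1, a 2.23-fold range. The exact interval of UC-dFBS-1 was 475 to 855, and overlapped none of those of the FBS, SBI-dFBS and UC-dFBS-2 samples, of which FBS-1 came closest (356 to 463), whereas those of UF-dFBS-1 (148 to 618) and UF-dFBS-2 (69.4 to 15404) overlapped those of all other FBS-based samples. The ratio of hsa-miR-122-5p to hsa-miR-148a-3p had a median of 47.1, from 35.6 in UC-dFBS-2 to 75.6 in SBI-dFBS-2. Here the sera kept their own ratio through ultracentrifugation. It was 48.1 (46.0 to 50.4) in FBS-1 and 46.0 (42.6 to 49.8) in UC-dFBS-1, against 36.1 (33.9 to 38.5) in FBS-2 and 35.6 (32.2 to 39.4) in UC-dFBS-2. The 2 lots of SBI-dFBS differed, with 45.3 (42.9 to 47.9) and 75.6 (69.8 to 82.1). In UF-dFBS the ratio was 66.9 (48.6 to 94.7) and 55.6 (26.7 to 139). The ratio of hsa-miR-148a-3p to hsa-miR-192-5p had the widest range of the 3 pairs, from 3.91 (3.27 to 4.71) in SBI-dFBS-2 to 13.7 (10.2 to 18.8) in UC-dFBS-1, with a median of 7.88, and these intervals do not overlap. In StemPRO, 7 counts of hsa-miR-122-5p against 2 and 1 gave ratios of 3.50 (0.666 to 34.5) and 7 (0.899 to 315).

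**Figure D3:**
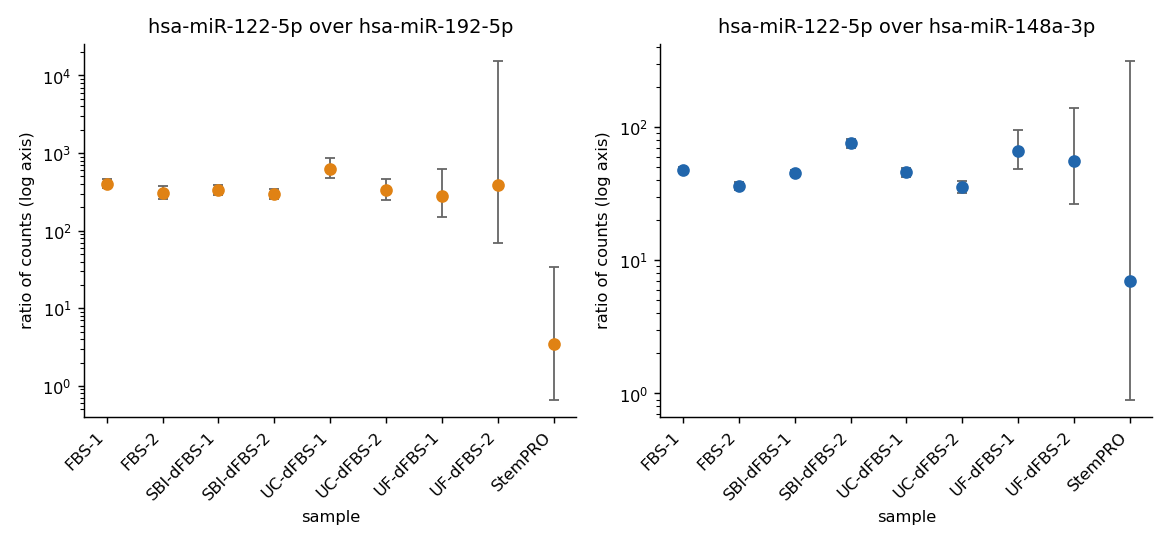
Ratio of the counts of hsa-miR-122-5p to those of hsa-miR-192-5p (left) and of hsa-miR-148a-3p (right) in each sample, on log axes, with exact 95% intervals as error bars. In the 8 FBS-based samples the ratios stay between 282 and 630 and between 35.6 and 75.6, and the widest intervals belong to UF-dFBS-2 and StemPRO, where the divisor has between 1 and 7 counts.

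Commercial depletion was compared with FBS to see whether the purchased serum is low in these miRNAs. In SBI-dFBS none of the 3 passed the test. The log2 change was -0.39 ± 1.43 (SE) for hsa-miR-122-5p, -0.83 ± 0.67 for hsa-miR-148a-3p and -0.09 ± 0.59 for hsa-miR-192-5p (edgeR quasi-likelihood test, adjusted p = 0.813, 0.285 and 0.893). Of the 163 miRNAs tested, 44.2% were lower and 1.23% higher in SBI-dFBS, and the median change was -1.70. Only 16 of the tested miRNAs had a less negative change than hsa-miR-122-5p, 33 than hsa-miR-148a-3p and 8 than hsa-miR-192-5p. Scaled to the other miRNAs by TMM instead of the spike-ins, the changes were 1.59 ± 0.51, 1.14 ± 0.47 and 1.83 ± 0.56, above the median of 0.21, with edgeR adjusted p of 0.0646, 0.136 and 0.0533, so that a rise relative to other miRNAs did not pass the threshold either. By TMM, 4.29% were lower and 1.84% higher. The direction on the spike-in scale rested on FBS-1, without which the 3 changes were 0.94, 0.18 and 0.93, and for hsa-miR-192-5p also on SBI-dFBS-1, without which it was 0.35. The 74 miRNAs called in either direction dropped to 23 without FBS-1, to 8 without SBI-dFBS-1 and to 43 without SBI-dFBS-2.

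After ultracentrifugation the members changed less than most miRNAs, and 2 of the 3 passed the test. In UC-dFBS hsa-miR-192-5p fell by 2.21 ± 0.63 (SE) on the log2 scale and hsa-miR-148a-3p by 1.75 ± 0.69 (edgeR adjusted p = 0.00113 and 0.0157). The change of hsa-miR-122-5p was -1.85 ± 1.48, which did not pass (edgeR adjusted p = 0.216). Across all miRNAs tested 90.8% were lower, 0 were higher, and the median change was -2.70, so that a fall is what nearly every miRNA showed, and 19 of 163 had a less negative change than hsa-miR-122-5p. With the serum as replicate block, hsa-miR-122-5p fell by 1.64 ± 0.45 (edgeR adjusted p = 0.000483), and 97.5% of 158 miRNAs were lower. Without FBS-1 the calls of hsa-miR-192-5p (-1.19, adjusted p = 0.119) and hsa-miR-148a-3p (-0.74, adjusted p = 0.355) were lost, as they were without UC-dFBS-2 (-2.11 and -1.41, adjusted p = 0.0508 and 0.155). The number of miRNAs called changed from 148 to 87 without FBS-1 and to 56 without UC-dFBS-2.

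Within a serum, the retained part of the members can be set against that of the other miRNAs. UC-dFBS-1 kept 23.9% of the hsa-miR-122-5p of FBS-1 (exact interval 23.5 to 24.2%), 25.0% of the hsa-miR-148a-3p (22.8 to 27.3%) and 15.3% of the hsa-miR-192-5p (11.0 to 21.0%). All miRNAs other than miR-122 together were kept at 13.8%, and the median of the 154 miRNAs with at least 10 counts in both FBS samples was 15.1%. UC-dFBS-2 kept 43.6% (42.8 to 44.5%), 44.3% (39.4 to 49.8%) and 40.5% (27.9 to 57.9%) of the same 3 miRNAs of FBS-2. Here the other miRNAs were kept at 14.8% and the median miRNA at 15.5%, and only 6, 5 and 11 of the 154 miRNAs were retained more than hsa-miR-122-5p, hsa-miR-148a-3p and hsa-miR-192-5p. In the Sigma serum 33, 28 and 73 were. Relative to other miRNAs (TMM, with the serum as replicate block, an alternative chosen after seeing the data), hsa-miR-148a-3p was higher in UC-dFBS by 1.04 ± 0.33 (edgeR adjusted p = 0.0323), whereas hsa-miR-122-5p at 1.01 ± 0.41 and hsa-miR-192-5p at 0.61 ± 0.44 did not pass (adjusted p = 0.143 and 0.589), and 3.16% of miRNAs were higher and 3.8% lower in that fit. Without the block, the TMM changes were 1.00 for hsa-miR-148a-3p, 0.91 for hsa-miR-122-5p and 0.60 for hsa-miR-192-5p, beside a median of -0.08 over all miRNAs tested, and did not pass (edgeR adjusted p = 0.694, 0.694 and 0.896). In that fit edgeR called 0 of 163 miRNAs, with 9 at an unadjusted p under 0.05, and DESeq2 with its own size factors called 2.

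Ultrafiltration lowered all 3 miRNAs, as it did nearly all miRNAs, and within a serum the members were between 294 and 586 times lower than in FBS. The log2 change against FBS was -8.60 ± 1.99 (SE) for hsa-miR-122-5p, -9.02 ± 0.96 for hsa-miR-148a-3p and -7.99 ± 0.83 for hsa-miR-192-5p (edgeR adjusted p = 1.86e-05, 2.61e-19 and 6.61e-20). Among all miRNAs tested 98.2% were lower and the median change was -8.67. In this fit 83 miRNAs had a more negative change than hsa-miR-122-5p and 79 a less negative one. UF-dFBS-1 kept 0.237% of the hsa-miR-122-5p of FBS-1 (exact interval 0.228 to 0.247%), and UF-dFBS-2 kept 0.336% of that of FBS-2 (0.303 to 0.372%). The other miRNAs together were kept at 0.133% and 0.192%, and the median of the 154 miRNAs at 0.0943% and 0.0332%. In this measure 47 and 36 of the 154 miRNAs were retained more than hsa-miR-122-5p. The 154 were chosen by their counts in FBS, and only 80 of them had any count in UF-dFBS-2. The median there is thus set by depth, and so in part is the place of hsa-miR-122-5p, the miRNA with the most counts. UF-dFBS-1 had only 1663 miRNA counts other than hsa-miR-122-5p, so low counts also limit its median and the place of hsa-miR-122-5p in it. For hsa-miR-148a-3p the retained part was 0.171% (0.120 to 0.235%) and 0.219% (0.0876 to 0.452%). For hsa-miR-192-5p it was 0.340% (0.154 to 0.657%) in the Sigma serum and, from 1 count, 0.268% (0.00672 to 1.52%) in the Gibco serum. These calls were kept without any 1 of the 8 samples. Scaled by TMM, none of the members differed between UF-dFBS and FBS by the test, with changes of 0.39, -0.10 and 0.85 (edgeR adjusted p = 0.639, 0.915 and 0.448), where 6.13% of miRNAs were lower and 7.36% higher.

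**Figure D4:**
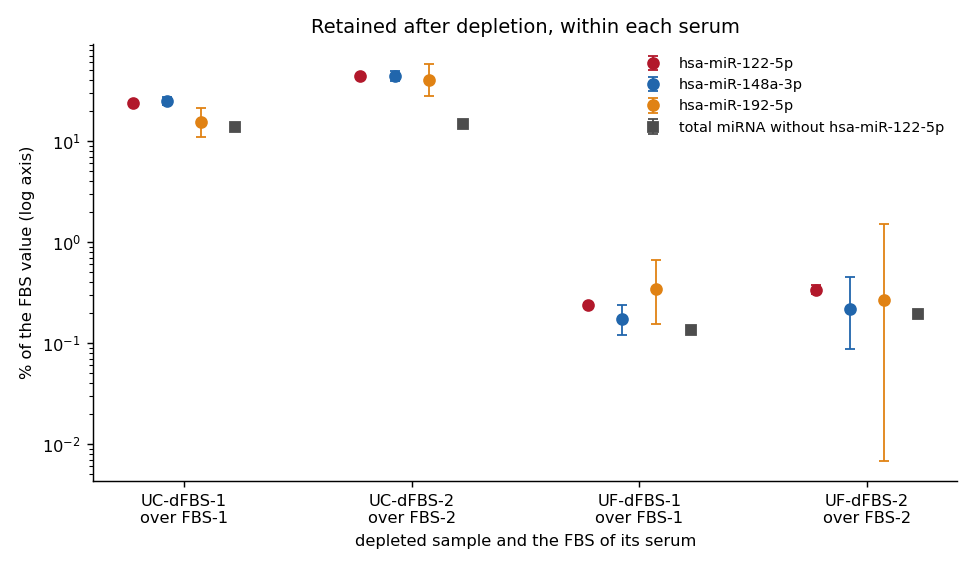
Percent of the FBS value of the same serum that remained in UC-dFBS and UF-dFBS (log axis), for the 3 miRNAs and for all other miRNAs than hsa-miR-122-5p together, with exact 95% intervals as error bars (counting error only). hsa-miR-122-5p lies above the other miRNAs in all 4 pairs, at 23.9% against 13.8%, 43.6% against 14.8%, 0.237% against 0.133% and 0.336% against 0.192%.

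Set against each other, the in-house methods differed for each member. The log2 change of UF-dFBS against UC-dFBS was -6.76 ± 1.84 (SE) for hsa-miR-122-5p, -7.27 ± 0.89 for hsa-miR-148a-3p and -5.78 ± 0.78 for hsa-miR-192-5p (edgeR adjusted p = 0.000341, 1.95e-14 and 1.58e-12). Of the miRNAs tested, 93.9% were lower in UF-dFBS, and the median change was -5.83. hsa-miR-148a-3p had a more negative change than all but 32 of the 163 miRNAs. Relative to other miRNAs (TMM with the serum as replicate block, an alternative chosen after seeing the data) it was also lower in UF-dFBS, with a change of -1.10 ± 0.40 against a median of -0.48 (edgeR adjusted p = 0.0412), where 6.96% of miRNAs were lower and 8.86% higher. The UF-dFBS side rests on 38 and 7 counts, and the differences between sera correlated at only -0.0870 between UC-dFBS and UF-dFBS. Without that block hsa-miR-148a-3p did not pass (-1.09, edgeR adjusted p = 0.258, with 3.68% of miRNAs lower and 5.52% higher). This comparison and those against FBS share the UF-dFBS or UC-dFBS samples.

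The sera of the 2 suppliers differed in all 3 members, with higher levels in the Sigma serum. In untreated FBS the Sigma value was 4.03 times the Gibco value for hsa-miR-122-5p, 3.02 times for hsa-miR-148a-3p and 3.08 times for hsa-miR-192-5p. In UC-dFBS the ratios were 2.2, 1.70 and 1.17, and in UF-dFBS 2.84, 2.36 and, from 9 counts against 1, 3.91 (exact interval 0.542 to 172). The Sigma sample was the higher in all 9 of these pairs, but for hsa-miR-192-5p in UC-dFBS, with 48 and 43 counts, the interval of 0.756 to 1.80 includes equal levels. The pairs are not independent, as the members of a sample share its spike-in factor and the media of a supplier share 1 serum. Total miRNA was likewise 2.52, 2.02 and 1.95 times higher in the Sigma sample of FBS, UC-dFBS and UF-dFBS. Over the 6 samples, with the medium as a term, the log2 change was 1.55 ± 0.35 (SE) for hsa-miR-122-5p, 1.19 ± 0.32 for hsa-miR-148a-3p and 1.08 ± 0.34 for hsa-miR-192-5p (edgeR adjusted p = 0.000326, 0.00198 and 0.00807). Of 105 miRNAs tested, 35.2% were higher and 1.9% lower in the Sigma serum, with a median of 0.62. By TMM, hsa-miR-122-5p remained higher (1.04 ± 0.35, edgeR adjusted p = 0.0310, with 6.67% of miRNAs higher and 5.71% lower), while hsa-miR-148a-3p and hsa-miR-192-5p did not pass. Each supplier is represented by 1 serum lot, so that supplier and lot cannot be told apart. The test takes preparations of the same serum as replicates, so its p-values do not cover the spread between lots. The 39 miRNAs called in either direction dropped to 0 without FBS-1 or FBS-2 and to 2 without UC-dFBS-1 or UC-dFBS-2, and rose to 56 and 59 without UF-dFBS-1 and UF-dFBS-2. hsa-miR-122-5p was no longer called without FBS-1 or FBS-2 (1.32 in each, adjusted p = 0.820 and 0.602), and the calls of the other members were also lost without either of the UC-dFBS samples. The lots of SBI-dFBS also differed, with SBI-dFBS-2 at 1.83 times the hsa-miR-122-5p, 1.10 times the hsa-miR-148a-3p and 2.06 times the hsa-miR-192-5p of SBI-dFBS-1, without replicates.

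**Figure D5:**
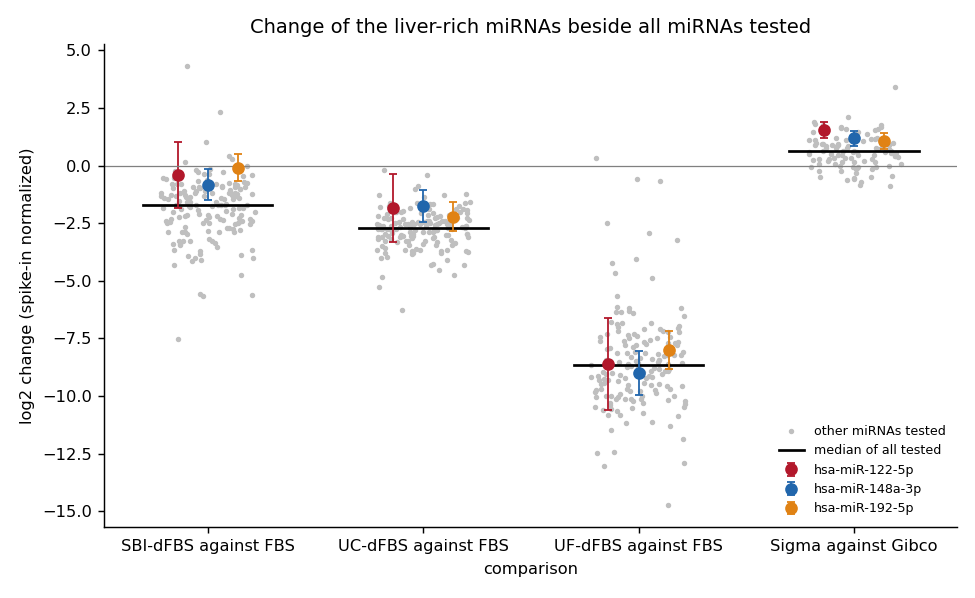
log2 change on the spike-in normalized scale in 4 comparisons, with the 3 miRNAs as coloured points (error bars are SE), the other miRNAs tested as grey points and the median of all miRNAs tested as a black line. The 3 miRNAs lie above the median of -1.70 in SBI-dFBS and of -2.70 in UC-dFBS, around the median of -8.67 in UF-dFBS, and above that of 0.62 for the Sigma against the Gibco serum.

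Relatives of the members were followed from a list of 10 miRNAs, of which 8 were in the table and 3 passed the filter on low counts. These 3 were hsa-miR-194-5p, the cluster partner of miR-192, and hsa-miR-148b-3p and hsa-miR-152-3p, the seed relatives of miR-148a. None of them passed the test in SBI-dFBS, where 44.2% of all miRNAs tested were lower and 1.23% higher. All 3 were lower in UC-dFBS and in UF-dFBS, as were 90.8% and 98.2% of all miRNAs tested. Their median changes were -0.69, -2.56 and -7.87, beside -1.70, -2.70 and -8.67 over all miRNAs tested. By TMM none of the 3 was called in any of these media. Their medians were 1.25, 0.22 and 0.98, beside 0.21, -0.08 and -0.59 over all miRNAs tested. Few miRNAs were called by TMM, with 4.29% lower and 1.84% higher in SBI-dFBS, and 6.13% lower and 7.36% higher in UF-dFBS. In UC-dFBS 0 of 163 were called, so that fit cannot set the relatives apart. The opposite arms of the members were nearly absent. hsa-miR-122-3p had at most 3 counts, in FBS-2, and hsa-miR-192-3p and hsa-miR-148a-5p had at most 2 counts in any sample. hsa-miR-215-5p had between 0 and 17 counts, the most in FBS-1.

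hsa-miR-194-5p did not exceed hsa-miR-192-5p in any sample, but their ratio ranged over 6.14-fold in the FBS-based samples with counts of both. The ratio of miR-192 to miR-194 was 2.37 (exact interval 1.86 to 3.03) in FBS-1 and 2.19 (1.57 to 3.09) in FBS-2, and 2.49 and 2.40 in SBI-dFBS-1 and UC-dFBS-1. It was higher in SBI-dFBS-2, with 4.47 (3.07 to 6.69), and in UC-dFBS-2, with 6.14 (2.74 to 16.2), where hsa-miR-194-5p had 7 counts. In UF-dFBS-1 both had 9 counts, and in UF-dFBS-2 hsa-miR-194-5p had 0 counts.

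hsa-miR-148a-3p had 8.87 times the counts of hsa-miR-152-3p in FBS-1 (7.71 to 10.2) and 8.88 times in FBS-2 (7.29 to 10.9). After ultracentrifugation the ratio was 17.3 (12.5 to 24.7) and 13.4 (9.26 to 20.2), above FBS in both sera, and the intervals of UC-dFBS and FBS overlapped in the Gibco serum but not in the Sigma serum. The ratio to hsa-miR-148b-3p likewise was 15.5 and 13.3 in FBS and 27.4 (18.3 to 43.1) and 21.2 (13.4 to 35.6) in UC-dFBS, with intervals that overlap those of FBS. Of these miRNAs with a shared seed, hsa-miR-148a-3p was retained more than hsa-miR-152-3p and hsa-miR-148b-3p after ultracentrifugation of each serum. The values were 25.0% against 12.8% and 14.1% in the Sigma serum and 44.3% against 29.3% and 27.7% in the Gibco serum. The intervals of these retained parts overlap in the Gibco serum but not in the Sigma serum. In SBI-dFBS the ratio to hsa-miR-152-3p was below that of FBS, with 7.65 (6.52 to 9.03) and 6.76 (5.40 to 8.56), but the intervals overlap. In UF-dFBS it was 4.75 (2.18 to 11.8) and 3.5 (0.666 to 34.5), from 8 and 2 counts of hsa-miR-152-3p. The ratio to hsa-miR-148b-3p was not lower throughout, with 14.6 and 17.5 in SBI-dFBS. In UF-dFBS it was 19 and 7, from 2 counts and 1 count of hsa-miR-148b-3p. After ultrafiltration hsa-miR-148a-3p was kept at 0.171% and 0.219%, against 0.319% and 0.554% for hsa-miR-152-3p and 0.139% and 0.414% for hsa-miR-148b-3p, with intervals that overlap. No test of these differences across replicates was made.

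Of other miRNAs known as rich in liver, 1 was above a member in FBS and the rest were scarce. Of 5 listed, 4 were in the table, and only hsa-miR-101-3p, which is also common in other tissues, passed the filter. It had 120 and 29.4 spike-in normalized counts in FBS, above hsa-miR-192-5p with 47.9 and 15.6. In UC-dFBS, where 90.8% of all miRNAs tested were lower, it fell by 3.67 ± 0.66 (SE) on the log2 scale (edgeR adjusted p = 1.46e-06). Of the 163 miRNAs, 141 had a less negative change. By TMM its change was -0.90 and did not pass (edgeR adjusted p = 0.878), in a fit that called 0 of 163 miRNAs. hsa-miR-885-5p, a liver marker, had at most 4 counts, hsa-miR-885-3p at most 2 and hsa-miR-483-3p at most 8 in any sample. Of the 5 liver markers, hsa-miR-885-5p was thus at or near 0 in all samples, and hsa-miR-194-5p had 20 counts or more in the FBS, SBI-dFBS and UC-dFBS-1 samples and 9 or fewer in the others.

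The profiles most like those of the members, by Pearson's r of log2 spike-in normalized counts over the 8 FBS-based samples among 73 candidates with at least 1 count in each, were in part the members themselves. For hsa-miR-122-5p they were hsa-miR-148a-3p (r = 0.996), hsa-miR-192-5p (0.995) and hsa-miR-432-5p (0.992), and for hsa-miR-192-5p they were hsa-miR-122-5p, hsa-miR-152-3p (0.994) and hsa-miR-432-5p (0.993). For hsa-miR-148a-3p they were hsa-miR-199b-3p and hsa-miR-107 (both 0.996) and hsa-miR-122-5p. Ultrafiltration lowered nearly all miRNAs, and the median r over the candidates was 0.958, 0.952 and 0.969. On the log2 share of miRNA counts, where this common fall is removed, the median r with hsa-miR-122-5p was -0.329, and hsa-miR-192-5p (0.760) and hsa-miR-148a-3p (0.576) were the closest of the 73. hsa-miR-122-5p is a large part of each total, so that other shares fall where its own rises, which by itself lowers this median. Without the UF-dFBS samples, 2 of the 3 nearest were shared with those above for hsa-miR-122-5p and hsa-miR-192-5p, and 0 of 3 for hsa-miR-148a-3p. The samples share sera and media, and the lowest count of hsa-miR-192-5p is 1.

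miRNAs of other cell types took a different share of the libraries. The 4 white-cell and platelet miRNAs hsa-miR-223-3p, hsa-miR-142-3p, hsa-miR-142-5p and hsa-miR-150-5p together held 8.73% and 6.99% of the miRNA counts in FBS and between 1.43% and 4.0% in the 6 depleted samples. All 4 were lower in SBI-dFBS, with a median change of -4.07, and by TMM 2 of the 4 were, with a median of -2.21, beside 44.2% and 4.29% of all miRNAs tested and medians of -1.70 and 0.21. The 4 red-cell miRNAs hsa-miR-451a, hsa-miR-144-3p, hsa-miR-144-5p and hsa-miR-486-5p summed to 245 and 286 spike-in normalized counts in FBS, to 176 and 131 in SBI-dFBS, where 0 of the 4 passed, and to 15.5 and 19.3 in UC-dFBS, where all 4 were lower with a median of -4.50 (by TMM 0 of 4, with a median of -1.82), beside 90.8% of all miRNAs tested (by TMM 0) and medians of -2.70 and -0.08. The 5 liver markers, the members with hsa-miR-194-5p and hsa-miR-885-5p, held 47.2% and 29.8% in FBS and 42.4% to 74.7% in the depleted samples, nearly all of it miR-122. Of 5 muscle miRNAs 2 passed the filter, and the sum of the 5 was between 0.543 and 60.9 spike-in normalized counts in the FBS-based samples, the highest in SBI-dFBS-1, against 4.77 in SBI-dFBS-2. Of the 2 tested, 1 was higher in SBI-dFBS on both scales, beside 1.23% of all miRNAs (1.84% by TMM), and both were lower in UF-dFBS, beside 98.2%, whereas by TMM 1 of them was higher there, beside 7.36%. Of 4 epithelial miRNAs 2 passed the filter, with a median change of -0.13 in UF-dFBS and 0 calls on the spike-in scale in SBI-dFBS, UC-dFBS or UF-dFBS, whereas by TMM both were higher in UF-dFBS, with a median of 8.49. All 4 together held 0.0182% and 0.0426% of the miRNA counts in FBS and 8.18% and 10.03% in UF-dFBS. Most of the latter was hsa-miR-203a, with 5.11 of 6.23 spike-in normalized counts in UF-dFBS-1 and 3.12 of 3.91 in UF-dFBS-2. The paper found hsa-miR-203a mainly as short inserts and proposes that it may be an artifact, so these shares need not reflect epithelium. The part of these miRNAs in the shares of the members was not tested.

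In StemPRO the members were near or under the floor while several other leading FBS miRNAs were not. hsa-miR-122-5p had 7 counts and shared the 27th place with other miRNAs of 7 counts. hsa-let-7a-5p, hsa-miR-126-3p, hsa-let-7f-5p and hsa-miR-142-3p, which after hsa-miR-122-5p had the highest means in FBS, were at 0.611, 0.629, 0.426 and 0.305 spike-in normalized counts, against 0.0648 for hsa-miR-122-5p. In FBS their means were 5.48, 7.31, 7.77 and 6.77 times lower than that of hsa-miR-122-5p, whereas in StemPRO each of them was above it. With 1 sample there is no test. The paper found a lower overlap with bovine miRNAs in StemPRO than in the other media. It proposes that a larger part of the StemPRO reads may be noise rather than miRNA.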

How the data were processed

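Small ncRNA was sequenced from 9 medium samples with molecular indices. The authors trimmed reads with cutadapt 1.11, mapped them with Bowtie2 2.2.2 to miRBase miRNAs and then to the human genome (GRCh37), and deposited collapsed counts per miRNA, so that bovine reads carry human names and a miRNA that differs between the species can be undercounted. The authors also deposited spike-in normalized values, a signal obtained by dividing the counts of a sample by a factor fitted to added synthetic RNAs. Each factor was recovered here as counts over normalized values and used as library size. The quasi-likelihood F-test of edgeR 4.0.16 under R 4.3.3, with p adjusted by Benjamini-Hochberg and called under 0.05, was fitted to the 8 FBS-based samples and the miRNAs with at least 10 counts in 2 samples, and for the suppliers to 6 samples with the medium as a term and at least 10 counts in 3. The SE is the log2 change over the root of F. Alternatives were TMM, DESeq2 1.42.0, other filters, a block for the serum and leaving out each sample. The block follows the serum that FBS, UC-dFBS and UF-dFBS of 1 number share by supplier label and methods, and deviations from the group means correlated over 163 miRNAs at 0.494 for UC-dFBS with FBS, at 0.0551 for UF-dFBS with FBS and at -0.0870 for the depleted media with each other. Named miRNAs were the members, their relatives, other liver-rich miRNAs, marker lists, the leading FBS miRNAs and the 3 most alike in profile, taken among miRNAs with at least 1 count in each sample because only 11 had 10. Intervals are Wilson for shares and exact for ratios, and scripts were tested on simulated data. The members and lists were chosen with earlier results of these data known.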

Additional observations from a re-analysis of the deposited data

How the results depend on the processing

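The spike-in scale decided the direction of the members in SBI-dFBS and UC-dFBS, and of hsa-miR-122-5p and hsa-miR-192-5p in UF-dFBS, against FBS. It also decided that of hsa-miR-192-5p in UF-dFBS against UC-dFBS. The remaining changes of the members, including those between suppliers, kept their direction. Scaled to other miRNAs, by TMM or by DESeq2 with its own size factors, the log2 changes of hsa-miR-122-5p, hsa-miR-192-5p and hsa-miR-148a-3p were 1.59, 1.83 and 1.14 or 1.44, 1.71 and 0.97 in SBI-dFBS and 0.91, 0.60 and 1.00 or 0.72, 0.39 and 0.81 in UC-dFBS. After ultrafiltration they were 0.39, 0.85 and -0.10 or 0.26, 0.73 and -0.21. For UF-dFBS against UC-dFBS they were -0.52, 0.25 and -1.09 or -0.46, 0.35 and -1.01. None of these passed. Between the suppliers hsa-miR-192-5p (0.36 or 0.51) and hsa-miR-148a-3p (0.55 or 0.67) lost their calls. By TMM or DESeq2 with its own size factors, miRNAs called numbered 10 or 10 in SBI-dFBS, 0 or 2 after ultracentrifugation, 22 or 23 after ultrafiltration, 15 or 15 for UF-dFBS against UC-dFBS, and 13 or 6 between suppliers, against 74, 148, 160, 153 and 39. On the share of miRNA counts, 0, 0 and 1 of the 6 depleted samples lay below both FBS samples for the 3 members, against 4 for each, and the mean retained part on the share scale was 159%, 129% and 164% after ultracentrifugation and 137%, 151% and 93.9% after ultrafiltration.

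With the serum as replicate block hsa-miR-122-5p gained a call in UC-dFBS (-1.64, edgeR adjusted p = 0.000483), as it did by DESeq2 with spike-in size factors (-1.85, adjusted p = 0.0386), and the block changed no other call of the members on the spike-in scale. TMM with the replicate block gave 1.01, 0.61 and 1.04 after ultracentrifugation, 0.37, 0.90 and -0.0647 after ultrafiltration, and -0.64 and 0.29 for hsa-miR-122-5p and hsa-miR-192-5p in UF-dFBS against UC-dFBS, with 11, 34 and 25 miRNAs called. A replicate block in SBI-dFBS, whose sera are not shared, gave 23 calls and 0.034 for hsa-miR-192-5p. Other alternatives moved the calls to 277 in UF-dFBS without the filter on low counts (419 miRNAs tested), and to 87 for UF-dFBS against UC-dFBS with only those media (90 tested). Between suppliers the calls were 14 by DESeq2 with spike-in size factors, 24 without the filter, and 0 without the medium term, where edgeR had 1 miRNA at an unadjusted p under 0.05 and the members were at 1.80, 1.34 and 1.39. hsa-miR-192-5p was at 1.07 in both of the former and lost its call (adjusted p = 0.125 and 0.0515). The cause of these shifts was not tested.

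Leaving out 1 sample at a time, with a lone sample assumed to vary like the other groups, gave 8 to 78 calls in SBI-dFBS, 56 to 151 in UC-dFBS, 131 to 160 in UF-dFBS, 124 to 153 for UF-dFBS against UC-dFBS and 0 to 59 between suppliers. The changes of hsa-miR-122-5p, hsa-miR-192-5p and hsa-miR-148a-3p ranged from -1.07 to 0.94, -0.69 to 0.93 and -1.42 to 0.18 in SBI-dFBS, from -2.53 to -0.52, -2.81 to -1.19 and -2.34 to -0.74 in UC-dFBS, and from 1.32 to 1.76, 0.53 to 1.65 and 0.94 to 1.46 between suppliers. The other 78 values under planned or added alternatives and 124 under leaving out a sample were unchanged by the rules used. Log2 changes kept their direction and side of the threshold, and counts stayed within 1.5 times the main count. Retained parts stayed within the SD between the 2 sera. Depth limits hsa-miR-192-5p most, with 9 counts and 1 count in UF-dFBS.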
